A study of Mus musculus with 6 samples.

Results

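Angptl4, Klf10, Pim3, Rab30, Pdk4, Pck1, G6pc, Tat, Sik1 and Irs2 are genes that liver switches on during fasting, through glucagon, glucocorticoids or fatty acids released from fat. The 10 were found in the count table by their Ensembl gene IDs, 10 of 55416 IDs in all, and all 10 were among the 17083 genes that passed the filter on low counts. The lowest count of any of them in any library was 208. The set was put together with the genotype comparison already known. Angptl4, Klf10, Pim3 and Rab30 were taken up because DESeq2 called them lower in knockout liver in these same libraries. Their genotype values, and those of the other 6 genes in the same comparison, are therefore given as a description and not as a test. No group of the study was fasted, so the induction that gives the genes their common name was not measured.

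The study sequenced polyadenylated RNA from whole liver of 6 male mice that all carried floxed Ephb2, the gene of a receptor tyrosine kinase for ephrin-B ligands. The WT group (n = 3) was Ephb2flox/flox without Cre. The KO group (n = 3) was Ephb2flox/flox with PdgfrbCreERT2, a tamoxifen-dependent recombinase made in stellate cells, pericytes and other cells that use the Pdgfrb promoter. Both groups were given tamoxifen for 5 days at 8 to 10 weeks of age. Afterwards both ate, for 8 weeks, an amino-acid-defined diet without added choline with 45% of calories from fat, 0.1% methionine and 1% cholesterol. Hepatocytes, the source of the gluconeogenic enzymes among the 10 genes, keep Ephb2 in this design. No group ate another diet, and none had Cre without the floxed gene, so effects of Cre and of the deletion cannot be told apart. The labels do not say whether the mice had food before tissue was taken, at what hour it was taken, or how the numbered replicates relate, so spreads and p-values measure only the differences between these samples. Libraries held 21160690 to 26339251 counts. Ephb2 itself was at 9.46, 8.28 and 12.4 CPM (counts relative to the TMM-scaled library total) in WT replicates 1 to 3, and at 6.01, 8.87 and 6.95 CPM in KO replicates 1 to 3. These ranges overlap, and since cells outside the Cre pattern keep the gene, they check the labels only weakly.

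In the fasted liver, glucagon raises cyclic AMP and activates the transcription factor CREB, glucocorticoids act through their receptor, and falling insulin lets FOXO1 enter the nucleus. Fatty acids from adipose tissue activate PPAR-alpha. Together these signals raise glucose production, the breakdown of amino acids and the burning of fat. Feeding and insulin act the other way and favour lipid synthesis through SREBP-1c.

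The stretches of DNA just before the start sites show one way in which these genes differ, so they are given first. RefSeq's table of promoters on GRCm38.p6 held 6 of the 10 genes, Pim3, Pdk4, Pck1, G6pc, Tat and Irs2. Angptl4, Klf10, Rab30 and Sik1 had no entry. The 250 bases before the start are shown for the gluconeogenic and amino acid genes Pck1, G6pc and Tat, and for Pdk4. Pck1, G6pc and Tat have a match to TNACGTNA, a loose form of the cyclic AMP response element, and Pdk4 has none. Capitals mark a match to the motif TNACGTNA on either strand, or to the TATA box TATAAA.
Pck1: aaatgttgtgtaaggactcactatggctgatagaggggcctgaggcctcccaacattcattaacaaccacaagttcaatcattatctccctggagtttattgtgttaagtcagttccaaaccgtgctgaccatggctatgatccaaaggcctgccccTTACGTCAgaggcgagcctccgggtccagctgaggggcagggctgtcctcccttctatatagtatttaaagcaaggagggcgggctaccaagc
G6pc: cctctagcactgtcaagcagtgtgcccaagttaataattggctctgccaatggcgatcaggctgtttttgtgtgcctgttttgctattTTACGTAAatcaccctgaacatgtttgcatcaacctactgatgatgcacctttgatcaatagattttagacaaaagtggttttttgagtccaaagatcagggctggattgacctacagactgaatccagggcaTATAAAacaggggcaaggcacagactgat
Tat: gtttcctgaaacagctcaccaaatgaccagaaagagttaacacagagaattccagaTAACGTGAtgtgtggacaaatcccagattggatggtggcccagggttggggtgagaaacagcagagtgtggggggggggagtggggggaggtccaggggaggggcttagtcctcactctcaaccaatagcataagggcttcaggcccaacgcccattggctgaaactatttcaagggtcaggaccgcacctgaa
Pdk4: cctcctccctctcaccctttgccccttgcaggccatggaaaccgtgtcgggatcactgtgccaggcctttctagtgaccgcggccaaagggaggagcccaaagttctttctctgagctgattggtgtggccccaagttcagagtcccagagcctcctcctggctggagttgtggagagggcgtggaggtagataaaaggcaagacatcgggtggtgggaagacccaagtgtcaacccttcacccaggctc
They lie at chr2:173152823-173153072 on the plus strand (Pck1), chr11:101367466-101367715 on the plus strand (G6pc), chr8:109990186-109990435 on the plus strand (Tat) and chr6:5496279-5496528 on the minus strand (Pdk4). TNACGTNA began 93 bases before the start in Pck1 (TTACGTCA), 162 bases before it in G6pc (TTACGTAA) and 194 bases before it in Tat (TAACGTGA). Thus 3 of the 6 promoters held it, and 3.83% of the 32841 promoters in the table did. The motif reads the same way on both strands. Its open positions make it looser than the motifs that follow, which were searched with fixed letters outside their spacers. Its presence and their absence are therefore not comparable. Irs2 held an E-box, CACGTG, 44 bases before its start, as did 6.02% of all promoters. None of the 6 held TGTTTAC (a FOXO site, 3.17% of all promoters), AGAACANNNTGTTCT (a glucocorticoid response element, 0.00913%) or AGGTCANAGGTCA (a PPAR response element, 0.0335%) on either strand. The shorter TGACG was found in Pck1 alone, on the minus strand, within the longer match (17.8% of all promoters), and AGAACA in none of the 6 (16.1%). TATAAA was found in G6pc, 29 bases before the start, and in 12.4% of all promoters. A match is a description of letters and not a bound site. The promoters of Pim3 and Irs2 were rich in CG pairs, with 31 and 34 in 250 bases, and those of Pck1, G6pc, Tat and Pdk4 held 5, 2, 3 and 6 (median of all promoters 6).

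Of the 10 genes, 9 had a lower fitted level in KO than in WT liver, against 51% of all genes tested, and their median log2 fold change was -0.75, against -0.005 for all genes tested. For 6 of them, Angptl4, Klf10, Pim3, Rab30, Pdk4 and Pck1, every KO library lay below every WT library, which held for 4.9% of all genes tested. The contrast was used to choose genes of the set, so nothing is read from these counts. edgeR's quasi-likelihood test called 0% of the 17083 genes after Benjamini-Hochberg adjustment (smallest adjusted p = 0.850). An unadjusted p under 0.05 was found for 886 genes. DESeq2 called 0.0567% of the 14107 genes to which it gave an adjusted p, and 0.0354% in the lower direction. Its calls included 4 of the 10 genes, those named above as chosen by it. Pdk4, which DESeq2 did not call, had the largest fold change of the 10, and G6pc had the one nearest to 0.

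**Figure D1:**
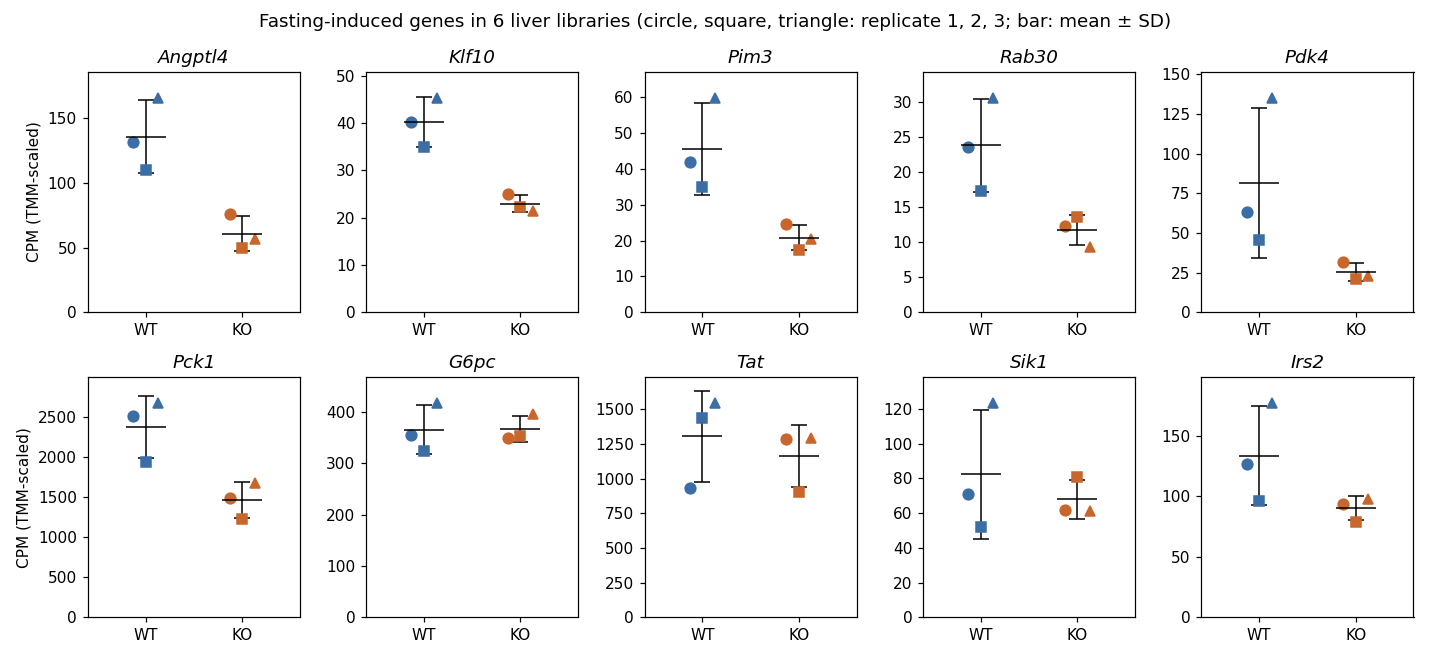
Level of each gene in each library, in CPM scaled by TMM on axes that start at 0, for WT and KO liver with the mean and SD of 3 libraries. In the panels of Angptl4, Klf10, Pim3, Rab30, Pdk4 and Pck1 the KO points lie below all WT points, whereas the 2 groups overlap for G6pc, Tat, Sik1 and Irs2, and WT replicate 3 (triangle) is the highest point in all 10 panels.

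Angptl4 and Pdk4 serve the use of fat. Angptl4 encodes a secreted inhibitor of lipoprotein lipase and is a target of PPAR-alpha and of the glucocorticoid receptor. It was at 131, 110 and 166 CPM in WT replicates 1 to 3, and at 76.2, 49.5 and 56.8 CPM in KO replicates 1 to 3. The lowest WT library was 1.45 times the highest KO library. The log2 fold change was -1.16 (SE 0.20, 95% interval -1.61 to -0.71). Pdk4 encodes the kinase that shuts pyruvate dehydrogenase and so spares glucose. It was at 63.0, 45.8 and 135 CPM in WT livers against 31.8, 20.7 and 23.1 CPM in KO libraries. The groups did not overlap, but WT replicate 3 stood far above the other WT libraries, at 2.49 times their mean. The log2 fold change of -1.69 (SE 0.38, 95% interval -2.57 to -0.82) was -1.11 without that library.

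Pck1, G6pc and Tat encode enzymes of glucose production and amino acid breakdown. Pck1, phosphoenolpyruvate carboxykinase, commits carbon to gluconeogenesis. Its level was 2511, 1941 and 2671 CPM in WT livers against 1482, 1229 and 1679 CPM in KO libraries, without overlap, with a log2 fold change of -0.70 (SE 0.19, 95% interval -1.13 to -0.27). G6pc, the catalytic subunit of glucose-6-phosphatase, carries out the last step of glucose release. It stood at 355, 323 and 417 CPM in WT livers against 349, 353 and 396 CPM in KO libraries, and the KO values lay inside the WT range. The log2 fold change of G6pc was 0.005 (SE 0.13), with a 95% interval from -0.29 to 0.30. The ratio of Pck1 to G6pc in CPM within a library, not corrected for exon length, does not depend on the scaling. It was 7.07, 6.01 and 6.40 in WT livers against 4.24, 3.48 and 4.24 in KO libraries, as a description. Tat encodes tyrosine aminotransferase, a classical glucocorticoid-induced enzyme. It was at 935, 1435 and 1548 CPM in WT livers against 1290, 903 and 1294 CPM in KO libraries. The log2 fold change of -0.17 (95% interval -0.70 to 0.36) was -0.02 without KO replicate 2, -0.03 without WT replicate 3 and -0.37 without WT replicate 1. The ranges overlapped widely, and the lowest WT library of Tat was replicate 1, where the other 9 genes had their lowest WT value in replicate 2.

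The remaining genes act in signalling and transcription. Klf10 encodes a zinc finger repressor induced by fasting signals, by the clock and by TGF-beta. It was at 40.2, 34.8 and 45.3 CPM in WT livers against 24.9, 22.3 and 21.5 CPM in KO libraries. The KO values lay within 1.16-fold of each other and the groups did not overlap. Its log2 fold change was -0.81 (SE 0.12, 95% interval -1.08 to -0.54), and edgeR's adjusted p was 0.850. Its unadjusted p was the smallest of all genes tested, but Klf10 was chosen by this same contrast, so nothing is read from that rank. Pim3 encodes a serine/threonine kinase. It was at 41.9, 35.0 and 59.9 CPM in WT livers against 24.5, 17.4 and 20.5 CPM in KO libraries, again without overlap (log2 fold change -1.13, SE 0.21). Rab30 encodes a small GTPase of the Golgi. The WT libraries held 23.5, 17.3 and 30.6 CPM of it and the KO libraries 12.3, 13.5 and 9.27 CPM (log2 fold change -1.02, SE 0.22). The gap between its groups was narrow, the lowest WT library being 1.28 times the highest KO library.

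Sik1 and Irs2 overlapped between the genotypes. Sik1 encodes a salt-inducible kinase that CREB induces and that in turn holds back the CREB coactivators. It was at 71.3, 52.2 and 124 CPM in WT livers against 61.7, 81.0 and 61.3 CPM in KO libraries. All KO values of Sik1 thus lay between the lowest and the highest WT value, and the log2 fold change of -0.27 (95% interval -0.93 to 0.39) turned to 0.14 without WT replicate 3. Irs2 encodes an adaptor of the insulin receptor that rises when insulin is low. Its WT libraries were at 127, 96.3 and 177 CPM and its KO libraries at 93.7, 79.0 and 98.0 CPM. KO replicate 3 stood just above WT replicate 2, and the other libraries of the groups were apart. The log2 fold change of Irs2 was -0.57 (SE 0.21, 95% interval -1.04 to -0.09) and -0.31 without WT replicate 3.

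**Figure D2:**
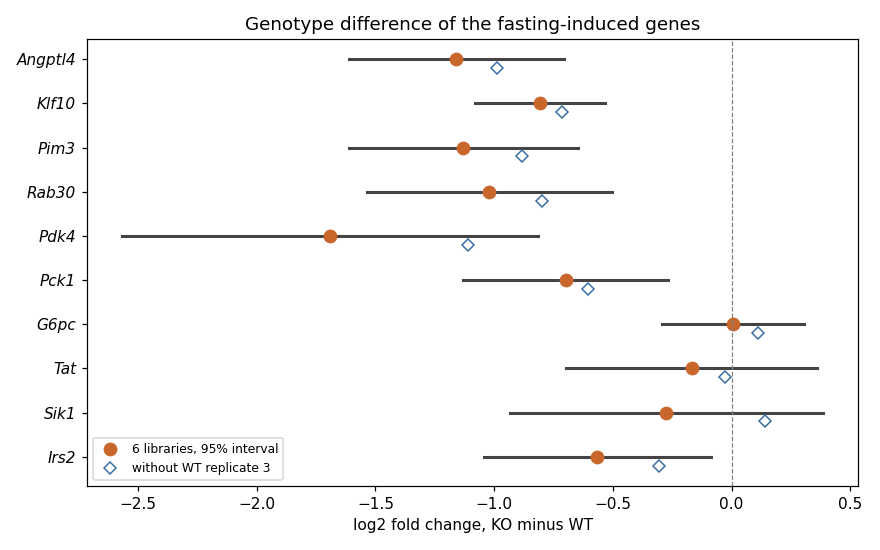
Log2 fold change between KO and WT liver of each gene with its 95% interval from all 6 libraries (circle and line), and the value without WT replicate 3 (diamond). The intervals of Angptl4, Klf10, Pim3, Rab30, Pdk4, Pck1 and Irs2 lie below 0, and leaving out WT replicate 3 brings every negative value nearer to 0 or, for Sik1, to 0.14.

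By level per exon length, in RPKM (CPM per kilobase of exon), the genes of glucose and amino acid metabolism stood far above the regulators. Pck1 was at 692 ± 112 RPKM in WT livers and 427 ± 65.8 in KO liver (SD, n = 3), and Tat at 543 ± 136 and 483 ± 93.3. G6pc followed at 151 ± 19.9 and 152 ± 10.7, then Angptl4 at 38.4 ± 7.96 and 17.2 ± 3.90. Pck1 and Tat overlapped over the libraries, while the range of G6pc (134 to 173 RPKM) touched neither theirs nor that of Angptl4. In WT liver, Pdk4 (23.2 ± 13.5 RPKM), Irs2 (21.1 ± 6.47), Pim3 (18.8 ± 5.31) and Sik1 (16.0 ± 7.20) could not be ranked beyond their spread. Pdk4 reached 38.6 RPKM in WT replicate 3, inside the WT range of Angptl4. Rab30 stood lowest (2.46 ± 0.69), below Klf10 (9.60 ± 1.26), whose highest WT library (10.8 RPKM) lay above the lowest of Sik1 (10.2 RPKM). In KO liver Pdk4 was at 7.18 ± 1.66 RPKM and Pim3 at 8.58 ± 1.46, below Irs2 (14.3 ± 1.58) and Sik1 (13.2 ± 2.19).

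Among the WT libraries the 10 genes tended to be high and low together, whereas among the KO libraries the highest one varied from gene to gene. WT replicate 3 was the highest WT library for 10 of the 10 genes, as for 35.2% of all genes tested. It stood from 1.20 times the mean of the other WT libraries for Pck1 to 2.49 times for Pdk4. It was also the highest of the 6 libraries for all 10 (24% of all genes tested). Where the genotypes do not overlap, only a WT library can be highest, so that share is no fair measure for these genes. WT replicate 2 was the lowest WT library for 9 of the 10 (33.1% of all genes tested). KO replicate 2 was the lowest KO library for 6 of the 10, and for the same 6 the lowest of all 6 libraries (15.3% of all genes tested). For Angptl4, Pim3, Pdk4 and Pck1, whose genotypes do not overlap, the lowest library had to be a KO library. Nothing is therefore read from that share, nor from the count within KO liver, for which the share of all genes was not computed. Among the KO libraries, replicate 1 was the highest for Angptl4, Klf10, Pim3 and Pdk4, replicate 3 for Pck1, G6pc, Tat and Irs2, and replicate 2 for Rab30 and Sik1.

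The correlation of deviations from the genotype means was computed for the 45 pairs of genes over the 6 libraries, as a description. The genes measured in 1 library share its animal, dissection and depth, and removing the genotype means leaves 4 degrees of freedom. The median of Pearson's r was 0.72, with 44 of the 45 pairs positive. Pim3 and Pdk4 had the highest value (0.98), Angptl4 and Pim3 stood at 0.96 and Klf10 and Pdk4 at 0.94. Rab30 was closest to Sik1 (0.90), and Irs2 to Pdk4, Pim3 and G6pc (0.93, 0.92 and 0.92). Tat moved least with the others, from -0.17 with Rab30 to 0.49 with Pim3. This common movement rested largely on WT replicate 3: the median of the pairs was 0.20 without it, and 0.55 to 0.84 without any of the other libraries. Pearson's r above 0.5 with Angptl4 was found for 7 of the 9 other genes and for 19.4% of all genes tested. The spread within genotypes was large for Pdk4, whose SD of 0.61 on the log2 scale lay at percentile 94.0 of all genes tested, and for Sik1 (0.47, percentile 88.1). It was small for G6pc (0.15, percentile 37.2) and Klf10 (0.16, percentile 39.2).

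**Figure D3:**
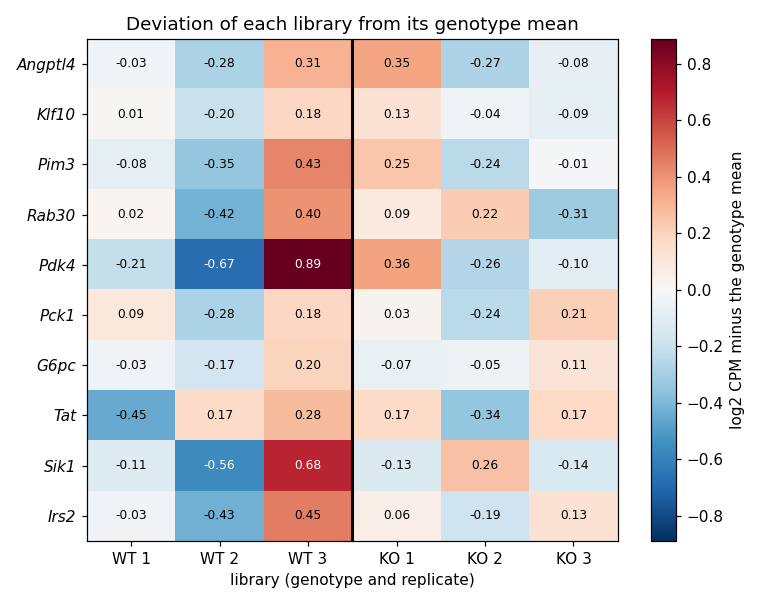
Log2 CPM of each gene in each library minus the mean of its genotype, with WT libraries left and KO libraries right of the line and red for values above the mean. The column of WT replicate 3 is above its mean for 10 of the 10 genes, most for Pdk4 (0.89) and Sik1 (0.68), and the column of WT replicate 2 is below it for all but Tat.

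WT replicate 3, the highest library for all 10 genes, stood apart in other respects too. The summed level of 6 Kupffer cell markers was 970 CPM there, 388 and 501 CPM in the other WT livers and 275 to 487 CPM in KO liver. That of 5 endothelial markers was 504 CPM there against 308 to 389 CPM in the other 5 libraries. All 6 Kupffer and all 5 endothelial markers had their highest level in this library. All of them also had a lower fitted level in KO liver, as did 51% of all genes tested. Their median log2 fold changes were -0.88 (Kupffer) and -0.18 (endothelial), 0 of them lay lower without overlap, and 0 passed edgeR's test. The summed level of 16 acute phase genes was high in WT replicates 1 and 3 and KO replicate 2 (34261, 42208 and 44815 CPM) and low in the others (17063 to 20132 CPM). The summed level of 5 neutrophil markers followed the same libraries, at 33.3, 84.5 and 55.8 CPM against 9.87 to 14.6 CPM. KO replicate 2 was thus high in both sums. All 4 neutrophil markers that were tested had a lower fitted level in KO liver, 0 of them without overlap (median log2 fold change -0.64). Hepatocyte markers were abundant in every library, with Alb, albumin, at 32565 to 42996 CPM, although Cyp2e1, a pericentral cytochrome, was at 623 CPM in WT replicate 3 and 934 in KO replicate 2 against 1924 to 2335 in the others. The summed level of 5 bile duct markers was 693 to 929 CPM in WT and 921 to 1289 CPM in KO libraries. Most of this sum was Spp1, at 613 to 834 CPM in WT and 803 to 1166 CPM in KO libraries. All 5 had a higher fitted level in KO liver, as did 49% of all genes tested. For 3 of them the libraries did not overlap, as for 1061 of the 17083 genes tested in that direction, and 0 passed edgeR's test. Stellate cell and fibroblast markers summed to 1311 to 1737 CPM in WT and 1424 to 1629 CPM in KO libraries. Lymphocyte markers were low, with sums of at most 12.3 CPM for 5 T and NK cell genes and 5.92 CPM for 4 B and plasma cell genes. Markers of fat and muscle tissue were near 0 (sums of at most 0.68 and 0.33 CPM), and Myh4, a muscle myosin, had no count in any library. The part of these differences in the levels of the 10 genes was not tested. In bulk tissue, fewer cells of a type and less RNA per cell cannot be told apart.

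The clock genes Dbp and Nr1d1 also separated libraries within each genotype. Dbp, a clock-driven transcription factor, was at 19.3, 15.0 and 4.69 CPM in WT livers against 21.0, 2.35 and 25.6 CPM in KO libraries. Nr1d1, the clock repressor REV-ERB-alpha, was at 92.7, 87.8 and 33.2 CPM in WT livers against 80.9, 8.57 and 73.4 CPM in KO libraries. Both were thus low in WT replicate 3 and KO replicate 2 and high in the other 4 libraries. Tef and Per3 were low in the same libraries, but not every clock gene was. Hlf was low in WT replicate 3 (8.13 CPM) and not in KO replicate 2 (20.7 CPM). Nr1d2 was low chiefly in KO replicate 2 (28.8 CPM), and Bhlhe41 changed little (10.6 to 14.0 CPM). Among the WT libraries the 10 genes were highest in WT replicate 3, as were 35.2% of all genes tested. Of the 16 clock genes, 9 were higher and 7 lower in KO liver. Their median log2 fold change of 0.02 ran from -0.08 without WT replicate 3 to 0.10 without KO replicate 2. Nfil3, a repressor that works against Dbp, was the clock gene with the smallest p (log2 fold change -0.65, SE 0.21, edgeR adjusted p = 0.850). The part of the clock in the levels of the 10 genes was not tested.

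Close relatives and partners of the 10 genes did not all stand as they did. Of 20 such genes, 15 were lower and 5 higher in KO liver, and 0 passed edgeR's test over all genes. Their median log2 fold change of -0.20 was -0.09 without KO replicate 2, -0.13 without WT replicate 1 and -0.12 when scaled by library size alone. Pim1, the kinase next of kin to Pim3, was at 44.2, 30.2 and 39.5 CPM in WT livers against 28.4, 20.2 and 24.4 CPM in KO libraries (log2 fold change -0.64, SE 0.17). Klf9, a glucocorticoid-induced relative of Klf10, was at 176, 167 and 229 CPM in WT livers against 128, 110 and 163 CPM in KO libraries (-0.51, SE 0.17). Pdp2, a phosphatase that reverses the action of Pdk4, lay lower too (-0.43, SE 0.14). These 3 genes did not overlap between the genotypes. In the whole list of 20, 6 lay lower without overlap, as did 4.9% of all genes tested. In the other direction 1 lay higher without overlap, as did 1061 of the 17083 genes tested. Irs1, the relative of Irs2, had a log2 fold change of -0.06 (SE 0.18). Angptl8, a feeding-induced relative of Angptl4, was at 9.76, 8.65 and 4.73 CPM in WT livers against 12.7, 17.4 and 8.60 CPM in KO libraries, the reverse direction to Angptl4 with overlap (0.74, SE 0.32). Within a library, in CPM without correction for exon length, Angptl4 was 13.5, 12.7 and 35.1 times Angptl8 in WT livers. In KO liver it was 6.01, 2.85 and 6.61 times Angptl8. Per exon length the means lay closer, at 38.4 RPKM for Angptl4 and 8.92 for Angptl8 in WT liver. In KO liver they were 17.2 and 14.9 RPKM.

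Among targets of the fasting signals, most genes lay lower in KO liver, as did 51% of all genes tested, and none passed edgeR's test over all genes. Their medians were nearer to 0 than that of the 10 genes. Some of the 10 were chosen by this same contrast, so the difference in size is not read as a result. Of 20 targets of PPAR-alpha, 19 were lower and 4 lay lower without overlap, as did 4.9% of all genes tested. The median was -0.34, and it was -0.53, -0.22 and -0.22 without KO replicates 1, 2 and 3. They included Cyp4a31, a fatty acid hydroxylase (-0.83, SE 0.24), Plin5, a droplet protein of oxidative tissues (-0.50, SE 0.15), and Pex11a, a peroxisome membrane protein (-0.48, SE 0.15). The exception was Fgf21, a hormone of fasting and protein restriction, at 22.0, 50.6 and 16.5 CPM in WT livers against 75.0, 41.4 and 31.8 CPM in KO libraries. Of 16 glucocorticoid targets, 15 were lower and 4 lay lower without overlap, against the same 4.9%. Of these, Zbtb16, a zinc finger repressor, was at 72.6, 51.1 and 128 CPM in WT livers against 23.9, 49.2 and 34.1 CPM in KO libraries (-1.23, SE 0.36). Dusp1, a MAP kinase phosphatase, stood at -0.78 (SE 0.21). WT replicate 3 was the highest library for 12 of these 16 genes, and the list's median of -0.40 was -0.18 without it and -0.62 without WT replicate 1.

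The cyclic AMP list held 16 tested genes, 14 of them lower. Its median of -0.20 was -0.06 without WT replicate 3, -0.12 without KO replicate 1, -0.33 without WT replicate 2 and -0.11 by library size alone. Lpin1, a phosphatidate phosphatase induced by fasting, was at 118, 106 and 295 CPM in WT livers against 80.5, 82.2 and 94.9 CPM in KO libraries. Got1, an aspartate aminotransferase, overlapped between the groups (-0.88, SE 0.36). In the list of FOXO1 targets and insulin-repressed genes, 10 of 13 were lower. The median of -0.17 was -0.26 without KO replicate 3 and -0.09 by library size alone. Igfbp1, an insulin-repressed binding protein of insulin-like growth factors, was at 601, 795 and 1536 CPM in WT livers against 588, 386 and 532 CPM in KO libraries. Its lowest WT library stood only just above its highest KO library. Ccng2, cyclin G2, was at -0.27 (SE 0.11), and Cited2, a coregulator, was higher at 0.35 (SE 0.17). Dusp1, Insr, Klf9, Klf15, Lpin1, Per1 and Ppargc1a each belong to more than 1 list, so the lists are not separate evidence.

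Of 15 hormone receptors and transcription factors upstream of the 10 genes, 11 were lower. Their median of -0.17 was -0.28 without WT replicate 2 and -0.09 by library size alone. Cebpb, a factor that drives Pck1 and the acute phase, was at 196, 145 and 268 CPM in WT livers against 133, 120 and 117 CPM in KO libraries, without overlap (-0.72, SE 0.20). Foxo3 was at -0.27 (SE 0.11) and Egr1 at 0.19 (SE 0.09). The 15 tested genes that insulin and feeding induce were split, 8 higher and 7 lower. Their median of 0.06 was 0.21 without WT replicate 1, 0.12 without KO replicate 3, 0.013 without WT replicate 3 and 0.14 by library size alone, and it turned to -0.04 without WT replicate 2 and -0.015 without KO replicate 2. Srebf1, the gene of SREBP-1c, was higher in all KO libraries, at 182, 203 and 141 CPM in WT livers against 327, 317 and 276 CPM in KO liver (0.81, SE 0.15). DESeq2 called it (adjusted p = 0.00222), and edgeR did not. Acacb (-0.95, SE 0.54) and Pgd (-0.18, SE 0.14), of fatty acid and NADPH metabolism, overlapped between the groups.

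**Figure D4:**
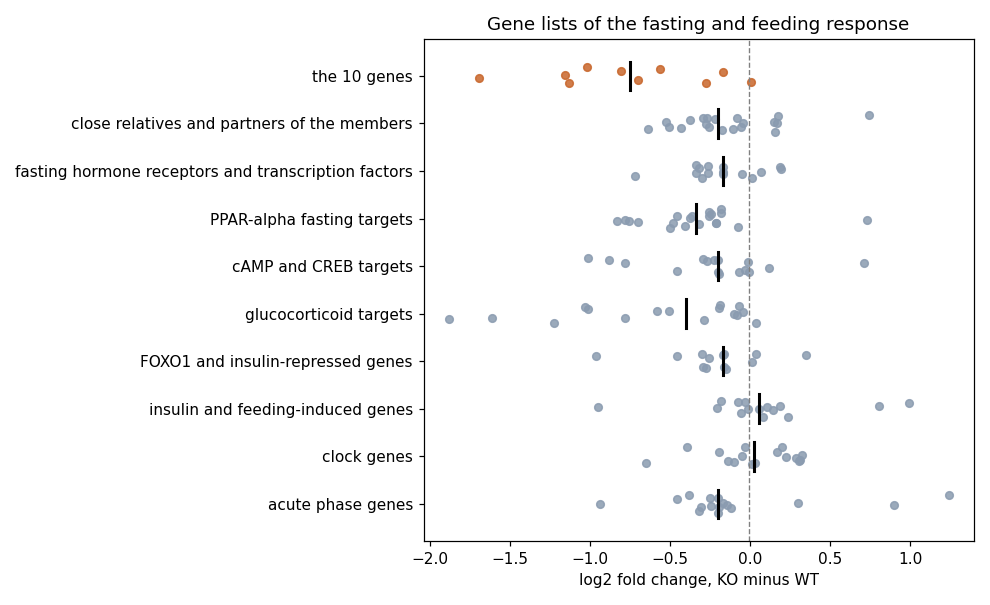
Log2 fold change between KO and WT liver of every tested gene in each list, with the median of the list as a black bar and that of all genes tested as a dashed line. The 10 genes (orange), some of them chosen by this contrast, have a median of -0.75. PPAR-alpha and glucocorticoid targets have medians of -0.34 and -0.40. The feeding-induced and clock genes are centred at 0.06 and 0.02, values that change sign when single libraries are left out.

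The genes with the profile most like Angptl4 were sought among other genes with a mean of at least 5 CPM and an established symbol. Over the 6 libraries these were Usp6nl, Nr1i2, Nans, Mafk and Ndufs6, with Pearson's r of log2 CPM from 0.986 to 0.992. Nr1i2 encodes the xenobiotic receptor PXR and Mafk a small MAF transcription factor. Their log2 fold changes, whose sign the choice by likeness sets, ran from -0.41 for Mafk to -0.18 for Nans, smaller in size than that of Angptl4. After removal of the genotype means, the closest were Usp6nl, Usb1, H2-DMa, Cdc37 and Ubxn6 (r from 0.990 to 0.998). Apart from Usp6nl these overlapped between the genotypes. The 5 highest of 10961 values of r over 6 libraries describe these libraries and no more.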

How the data were processed

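RNA of 6 liver samples was measured, 3 per genotype, with groups and replicate numbers from the sample titles. The file the authors deposited holds raw counts, whole numbers of reads for each Ensembl gene ID. Per the submitters' processing notes, STAR 2.7.6a, featureCounts 1.6.3 and DESeq2 1.30.0 were used with GRCm38 and mm10, but the notes name no roles. Which annotation was counted and with which strand setting is not given in the sources used here. GENCODE M21 (GRCm38) supplied symbols, coordinates and exon lengths for 52135 of 55416 IDs. Irs2 shares 162 exon bases with an antisense gene that had at most 5 counts in a library, and none of the other 9 genes shares exon bases with another gene of that annotation.

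Chi-square per degree of freedom between libraries of a genotype was 13.4 to 77.9, so each library counted as 1 replicate. All genes were fitted with edgeR 4.0.16 in R 4.3.3 (TMM, glmQLFit, glmQLFTest). Genotype was the only term, genes were filtered by filterByExpr at a minimum count of 10 and a total of 15, and p-values of all 17083 genes were adjusted by Benjamini-Hochberg at 0.05. Intervals are 95% intervals. Logged levels used a prior count of 2. No set test was run. DESeq2 1.42.0 and limma-voom (limma 3.58.1), other scalings and filters, the replicate number as a block and leaving out each library were alternatives. The fit was tested on simulated counts. The 10 genes and the lists were chosen with earlier results of these data known. The 3 genes with the smallest p and a mean of at least 1 CPM were named per list. Angptl8, Irs1, Fgf21, Dbp, Nr1d1, Tef, Per3, Hlf, Nr1d2, Bhlhe41, Per1, Spp1, Alb and Cyp2e1 were named after their values were seen. Transferrin, listed under a symbol the annotation does not use, was not measured, which left 6 of 7 hepatocyte markers. A gene withheld from the list of relatives is not reported here.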

Additional observations from a re-analysis of the deposited data

How the results depend on the processing

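The number of genes called over the whole table was 0 by edgeR in the fit reported, 3 without a filter on low counts (Angptl4, Klf10 and Pim3), 8 by DESeq2 and 7 by DESeq2 when its filtering was optimised at 0.05, a setting chosen after seeing the data, under which Rab30 was no longer called. Leaving out a library gave 0 to 2 calls, the 2 without WT replicate 3, neither of them among the 10 genes. Angptl4, Klf10, Pim3, Rab30, Pdk4, Pck1, Tat and Irs2 kept a negative log2 fold change in all 16 alternatives run. Pdk4 ranged widest, from -1.98 without WT replicate 2 to -1.11 without WT replicate 3. G6pc, at 0.005, was at -0.0060 with DESeq2 size factors, at -0.0062 by DESeq2 under both filterings, at -0.00052 without a count filter, and at -0.078 to 0.11 with a library left out. Sik1 went from -0.27 to 0.14 without WT replicate 3 and to -0.52 without WT replicate 2. The median correlation between pairs, 0.72, was 0.59 by library size alone. Library size alone moved the median of all genes to 0.075 and that of the 10 genes from -0.75 to -0.66. With the replicate number as a block, 0 genes were called (smallest adjusted p = 0.964), and Angptl4 stood at -1.16 and Pdk4 at -1.55. Same-numbered samples did not deviate together (correlations of -0.03, -0.44 and -0.31), and the number was not taken as a pairing. Depth was not varied, and every one of the 10 genes had at least 208 counts in each library.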
